A study of Homo sapiens with 6 samples.

Results

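The genes FOS, FOSB, FOSL1, FOSL2, JUN, JUNB, JUND, ATF3, BATF3 and MAFF encode basic leucine zipper (bZIP) proteins of the AP-1 transcription factor and its relatives. These 10 genes were taken by symbol from a table of 52408 genes, and each symbol matched 1 row. HepG2, an established human liver cancer line that keeps many hepatocyte traits, received ellagic acid (EA), a polyphenol of fruits and nuts, at 50 µM for 24 h, and control cells received the solvent dimethyl sulfoxide (DMSO) in equal amount. Each of the 2 groups had 3 RNA sequencing libraries. Nothing in the labels states that the libraries of a group came from separate cultures, and the p-values then cover the variation among these libraries only, which may be technical. The comparison asks how EA changed the RNA of each AP-1 gene.

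AP-1 is a dimer. JUN proteins pair with each other or with FOS proteins, whereas FOS proteins do not form stable pairs among themselves, and the dimers bind the DNA sequence TGAGTCA or, with ATF partners, TGACGTCA. FOS, FOSB, JUN and JUNB are immediate early genes, transcribed without new protein synthesis when MAP kinases phosphorylate ternary complex factors and JUN, and their RNAs are short-lived. In liver, JUN is known for its part in regeneration and in the growth of early tumours.

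Promoter sequence is shown for FOS and FOSB, which rose most, and for the members whose window held 1 of 4 planned motifs, since AP-1 genes are known to respond to AP-1 and ATF/CREB proteins. RefSeq windows (GRCh38.p14, 250 bases before to 50 after a start site) were found for 8 of the 10 genes, in 10 windows, with 2 start sites each for ATF3 and MAFF. FOSL1 and BATF3 had none in the table. Capitals mark a motif match as read on the gene's own strand (TGACG in FOS and FOSB, TGACTCA in FOSL2, TGACATCA in JUN and ATF3, TGACGTCA in JUND and MAFF), and stretches end before the first annotated exon except in the 30-base sites of FOSL2, JUN and MAFF.
FOS, chr14:75278578-75278773, + strand: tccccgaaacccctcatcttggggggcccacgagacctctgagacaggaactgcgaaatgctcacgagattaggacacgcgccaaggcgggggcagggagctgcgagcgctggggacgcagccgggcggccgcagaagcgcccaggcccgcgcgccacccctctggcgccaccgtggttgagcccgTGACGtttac
FOSB, chr19:45467746-45467994, + strand: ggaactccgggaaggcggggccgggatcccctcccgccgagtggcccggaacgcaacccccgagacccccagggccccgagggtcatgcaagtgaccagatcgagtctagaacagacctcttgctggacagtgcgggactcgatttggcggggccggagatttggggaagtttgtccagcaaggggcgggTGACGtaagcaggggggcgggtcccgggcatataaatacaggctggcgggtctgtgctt
FOSL2, chr2:28392851-28392880, + strand: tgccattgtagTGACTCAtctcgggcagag
JUN, chr1:58784096-58784125, - strand: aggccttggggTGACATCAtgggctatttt
JUND, chr19:18281623-18281872, - strand: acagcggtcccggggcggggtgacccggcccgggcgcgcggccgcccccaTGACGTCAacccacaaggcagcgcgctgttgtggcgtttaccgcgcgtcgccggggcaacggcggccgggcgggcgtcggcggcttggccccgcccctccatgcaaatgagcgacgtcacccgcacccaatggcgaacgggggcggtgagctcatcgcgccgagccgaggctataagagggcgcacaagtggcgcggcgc
ATF3, chr1:212565157-212565333, + strand: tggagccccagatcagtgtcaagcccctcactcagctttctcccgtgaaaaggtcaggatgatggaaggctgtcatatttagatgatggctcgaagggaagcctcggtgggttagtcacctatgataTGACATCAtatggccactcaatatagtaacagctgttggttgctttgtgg
MAFF, chr22:38201929-38201958, + strand: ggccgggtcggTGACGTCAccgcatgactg

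Both strands of the windows were searched for 4 motifs. The serum response motif, the CArG box, was in 0 of the 10 windows and in 1.29% of the 35116 RefSeq windows of this length. Sequence more than 250 bases before the start was not searched, so this does not show that the genes lack a CArG box. TGAGTCA, the AP-1 site, was in the window of FOSL2 alone, where it lies at position 5 after the start and reads TGACTCA on the gene's strand (4.95% of all windows). TGACGTCA, the cyclic AMP response element, was in the windows of JUND (position -200) and MAFF (position -54), against 1.85% of all windows. The variant TGACATCA was in those of JUN (position -67) and ATF3 (position -123), against 2.61%. For ATF3 and for MAFF, only the first listed window held a match, and the printed sequence is from that window. In GENCODE 29 the JUN transcript starts further upstream than in RefSeq and covers the printed site, so that site may lie in the 5′ untranslated region. The shorter TGACG, contained in TGACGTCA, was added after the windows were seen because FOS and FOSB held none of the other motifs. It was in 7 of the 10 windows, that of JUNB (not printed) included, at position -64 in FOS and -60 in FOSB, and in 24.6% of all windows. These matches are descriptions of letters, and binding was not measured here.

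RNA of 8 of the 9 AP-1 genes that could be tested was higher with EA, and that of JUND was lower. The largest changes were those of FOS and FOSB, which rose 25.4-fold and 26.0-fold, and the smallest rise was 3.44-fold for MAFF. Among all 15648 tested genes, 81% were called at an adjusted p of 0.05 (edgeR's quasi-likelihood F test, p-values adjusted by Benjamini and Hochberg over all tested genes), 40.5% higher and 40.5% lower with EA. A called change is therefore the usual state of a gene in this comparison. In all 9 the EA and DMSO libraries did not overlap, 8 with EA above and 1 with EA below, against 41.4% and 41.5% of all tested genes (82.9% in either direction). All 8 rises exceeded 2-fold, and 23.4% of all tested genes were called higher by at least 2-fold. The median log2 fold change was 2.83 over the 9 genes and 0.00 over all tested genes. The 9 genes had at least 26 reads in every library, so none entered the test through 1 group alone. Fewer cells making an RNA and less RNA per cell cannot be told apart in such bulk samples.

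**Figure D1:**
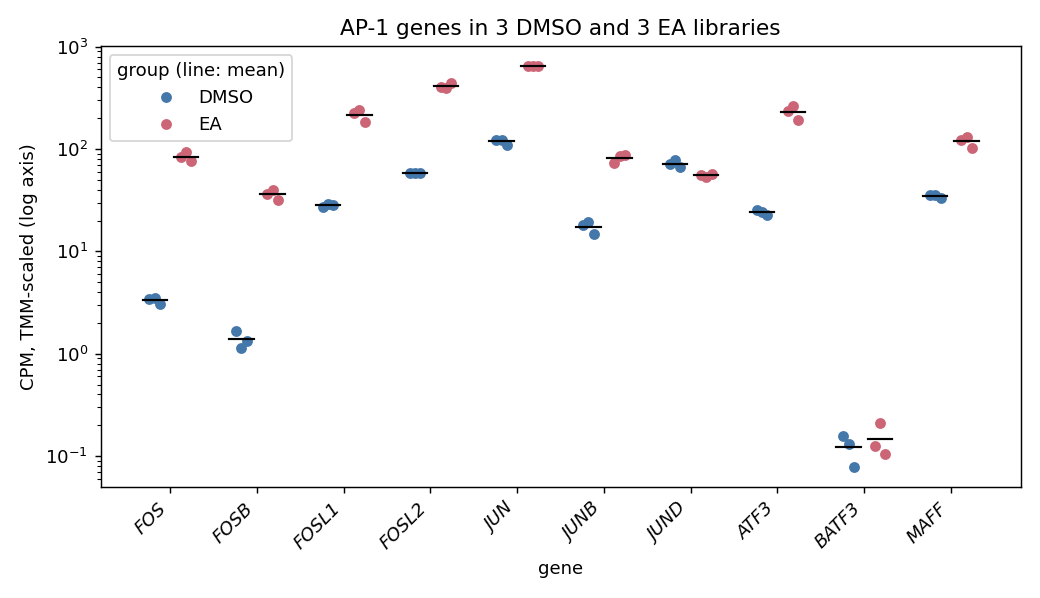
Levels of the 10 AP-1 genes (x axis) in CPM (read counts scaled to a common library size, with TMM factors; log axis), 1 point per library and a line at the mean of each group. For FOS, FOSB, FOSL1, FOSL2, JUN, JUNB, ATF3 and MAFF every EA library lies above every DMSO library, for JUND every EA library lies below, and BATF3 overlaps near 0.1 CPM.

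Libraries held 22987425 to 25973621 assigned reads in DMSO and 15738089 to 19202292 in EA. EA replicate 3 stood apart from the other EA libraries: its read counts differed from theirs by 11.9 and 13.8 times the counting variance (chi-square per degree of freedom), against 3.55 between EA replicates 1 and 2 and 3.31 to 4.22 among DMSO libraries. All 8 hepatocyte markers checked, including ALB, AFP and APOB, were expressed in both groups and called lower with EA, as were 40.5% of all tested genes. Their summed level was 48016 to 50857 CPM in DMSO and 11807 to 12442 CPM in EA. Markers of other cells were low: the 7 fibroblast markers summed to 16.5 to 17.7 CPM in DMSO and 4.77 to 6.45 in EA, with COL1A2 and DCN at 0 reads in all libraries. The 6 blood cell markers summed to 3.0 to 3.27 and 1.22 to 2.27 CPM (PTPRC, CD3E and CD68 listed at 0, which may reflect how reads were assigned), and the 4 endothelial markers in the table to 2.32 to 2.44 and 3.34 to 4.42 CPM. The 5 basal keratinocyte markers summed to 0.0389 to 0.118 CPM in DMSO and 9.06 to 10.6 in EA, with KRT5 at 0 reads in all libraries and KRT14 at 7.91 ± 1.27 CPM in EA (SD, n = 3). The part of these shifts and of EA replicate 3 in the levels of AP-1 genes was not tested, beyond the values without that library given below.

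FOS proteins need a JUN partner to bind DNA, and FOS itself carries a strong activation domain. FOS (ENSG00000170345) had 88, 80 and 78 reads in DMSO replicates 1 to 3 and 1332, 1759 and 1455 in EA replicates 1 to 3. In CPM these were 3.43, 3.48 and 3.07 with DMSO and 82.9, 93.2 and 76.9 with EA. The groups lay far apart, with the lowest EA library well above the highest DMSO library. The log2 fold change of FOS was 4.66 (SE 0.11, adjusted p = 1.56e-14 in edgeR), and 3.14% of tested genes rose more.

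FOSB, the closest relative of FOS, is best known for its stable shortened form in neurons. It had 43, 26 and 34 reads with DMSO and 589, 754 and 604 with EA (ENSG00000125740). The DMSO level of 1.38 ± 0.274 CPM was the lowest of the tested AP-1 genes, and that with EA was 36.2 ± 4.04 CPM (SD, n = 3). The log2 fold change of FOSB was 4.70 (SE 0.15, adjusted p = 3.17e-13 in edgeR), within 1 SE of the change of FOS. Its full-length and shortened splice forms cannot be separated in counts per gene.

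FOSL1 and FOSL2 encode the FOS-related antigens FRA1 and FRA2, which lack the activation domain of FOS and are made for longer after a stimulus. FOSL1 (ENSG00000175592) stood at 27.2, 29.1 and 28.2 CPM with DMSO and at 223, 241 and 185 CPM with EA. FOSL2 (ENSG00000075426) stood at 58.0, 58.3 and 58.7 CPM with DMSO and at 405, 398 and 444 CPM with EA. Neither gene overlapped between groups, and the EA libraries fell in opposite orders: EA replicate 3 was the lowest of the 3 for FOSL1 and the highest for FOSL2. The log2 fold changes were 2.94 for FOSL1 (SE 0.09, adjusted p = 1.19e-12) and 2.83 for FOSL2 (SE 0.07, adjusted p = 2.40e-14), both from edgeR. Without EA replicate 3 they were 3.01 and 2.76.

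Among the JUN genes, JUN encodes the strongest activator and is a target of its own protein. JUN (ENSG00000177606) had 122, 124 and 110 CPM with DMSO and 644, 645 and 648 CPM with EA. The EA values had the smallest relative spread of any AP-1 gene in a group (SD 0.286% of the mean). That is less than counting error alone would give at these read counts, so it is no measure of how steady JUN was. JUN rose 5.44-fold (log2 fold change 2.44, SE 0.07, adjusted p = 1.06e-13 in edgeR). JUNB, a weaker activator that can hold JUN in check, had 18.3, 19.2 and 14.6 CPM with DMSO and 73.4, 84.6 and 87.4 CPM with EA (ENSG00000171223). Its log2 fold change was 2.24 (SE 0.11, adjusted p = 6.46e-11 in edgeR). In GENCODE 29, JUNB shares 259 bases of exon with HOOK2 on the opposite strand. Whether counting used strand is not stated, so reads there cannot be assigned to one of them. HOOK2 summed to 838 reads in DMSO and 222 in EA.

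JUND is the JUN gene known for steady expression in resting cells and for slowing growth. It was the exception among the tested members. JUND (ENSG00000130522) had 71.1, 78.0 and 66.2 CPM with DMSO and 55.6, 52.9 and 56.8 CPM with EA, so that every EA library lay below every DMSO library. It fell by 0.38 on the log2 scale (SE 0.08, adjusted p = 0.000316 in edgeR), which is a level 1.30-fold higher in DMSO. The change was small beside those of its relatives: 38.1% of all tested genes fell more. Under the 4 other scalings of the libraries its log2 fold change was between -0.40 and -0.35.

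The other members are partners at the edge of AP-1. ATF3, induced by many kinds of cell stress, binds as a pair with JUN proteins or with itself. ATF3 (ENSG00000162772) had 25.5, 24.4 and 22.5 CPM with DMSO and 233, 264 and 190 CPM with EA. It rose 9.48-fold (log2 fold change 3.25, SE 0.12, adjusted p = 1.46e-10 in edgeR), and by 3.34 without EA replicate 3, its lowest EA library. MAFF, a small MAF protein without an activation domain that also pairs with NRF proteins, had 35.2, 35.3 and 33.0 CPM with DMSO and 123, 131 and 103 CPM with EA (ENSG00000185022). Its log2 fold change was 1.78 (SE 0.09, adjusted p = 5.65e-11 in edgeR).

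BATF3, known for its role in dendritic cells, was barely read in this line. BATF3 (ENSG00000123685) had 4, 3 and 2 reads with DMSO and 2, 4 and 2 with EA, at or near the limit of 3 reads per library, and the groups overlapped. It did not reach the minimum for the test, and a change was not detectable at this depth. Such limits cover counting error only.

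**Figure D2:**
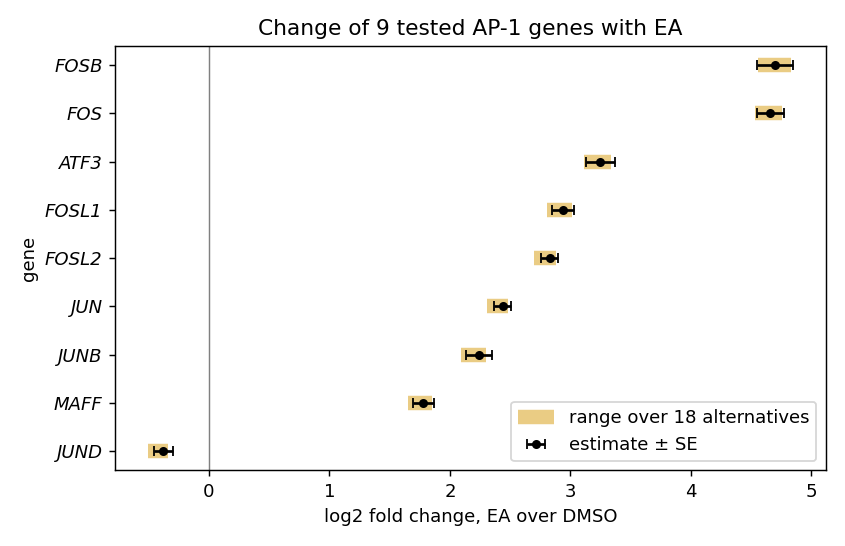
Log2 fold change of EA over DMSO (x axis) for the 9 tested AP-1 genes (y axis), with the estimate and its SE in black and, in yellow, the range over 18 other ways of processing. FOSB and FOS stand highest at 4.70 and 4.66, JUND alone lies below 0 at -0.38, and no range crosses 0.

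The order of EA libraries differed between members. FOS, FOSB, FOSL1, ATF3 and MAFF were each highest in EA replicate 2 and lowest in EA replicate 3. FOSL2, JUN, JUNB and JUND were each highest in EA replicate 3. The SD over EA libraries was 9.78% of the mean for FOS, 13.3% for FOSL1, 16.2% for ATF3 and 12.2% for MAFF, and 5.96% for FOSL2, 9.07% for JUNB and 3.66% for JUND. Without EA replicate 3 the log2 fold changes were 4.70 for FOS, 4.76 for FOSB, 2.42 for JUN, 2.16 for JUNB, -0.43 for JUND and 1.85 for MAFF, each with the same call in edgeR. These orders are descriptions of 3 libraries.

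Divided by exon length, the levels can be set side by side. In DMSO, JUND was the most abundant AP-1 RNA at 38.5 ± 3.20 RPKM (CPM per kilobase of exon, SD, n = 3), followed by JUN at 33.5 ± 2.08 and FOSL1 at 14.9 ± 0.491. JUNB and FOSL2 overlapped at 9.55 ± 1.34 and 8.15 ± 0.0439 RPKM, and so did MAFF and ATF3 at 6.14 ± 0.231 and 5.98 ± 0.381. FOS at 1.03 ± 0.0693 and FOSB at 0.249 ± 0.0494 came last but for BATF3 (0.0448 ± 0.0145). With EA, JUN led at 182 ± 0.521 RPKM and FOSL1 followed at 115 ± 15.2. FOSL2 (58.1 ± 3.46), ATF3 (56.7 ± 9.16) and JUNB (44.9 ± 4.08) came next, each overlapping its neighbour in this order. JUND had moved from the highest place to the sixth, at 29.6 ± 1.08 RPKM, and overlapped FOS (26.0 ± 2.55). MAFF at 21.2 ± 2.58, FOSB at 6.51 ± 0.727 and BATF3 at 0.0543 ± 0.0209 were the lowest. With the longest transcript as the length, the order of the highest 3 in DMSO and of the highest 2 with EA was the same. ATF3 then stood at 11.5 RPKM in DMSO and 109 with EA, MAFF at 10.5 and 36.2 and FOS at 1.54 and 39.1, and JUND ranked 8 with EA.

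The makeup of each family changed along with its sum. Summed over its 4 genes, the FOS family was at 24.4 ± 0.470 RPKM in DMSO and 205 ± 15.0 with EA (SD, n = 3). FOSL1 made up 61.3% ± 0.841 of that sum in DMSO and 55.6% ± 3.49 with EA, and FOSL2 33.5% ± 0.588 and 28.5% ± 3.82. FOS went from 4.21% ± 0.284 to 12.7% ± 0.394 and FOSB from 1.02% ± 0.223 to 3.17% ± 0.125. FOSL1 and FOSL2 together made up most of the sum in every library. The summed JUN family was at 81.6 ± 6.42 RPKM in DMSO and 257 ± 4.69 with EA. Within it JUND went from 47.2% ± 0.958 to 11.5% ± 0.424, JUN from 41.1% ± 1.00 to 71.0% ± 1.10 and JUNB from 11.7% ± 0.785 to 17.5% ± 1.29. The ratio of summed JUN to summed FOS RNA per length was 3.07 to 3.52 in the DMSO libraries and 1.17 to 1.38 in the EA libraries, with no overlap. These sums, shares and ratios take all annotated exons of a gene as its length. With the longest transcript instead, FOS stood at 39.1, FOSB at 9.58 and FOSL1 at 129 RPKM with EA, while JUN, JUNB and JUND did not change. The FOS family sum would then be higher, the share of FOS larger and the ratio of JUN to FOS lower in both groups. These sums are descriptions with no test, and say nothing of protein.

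**Figure D3:**
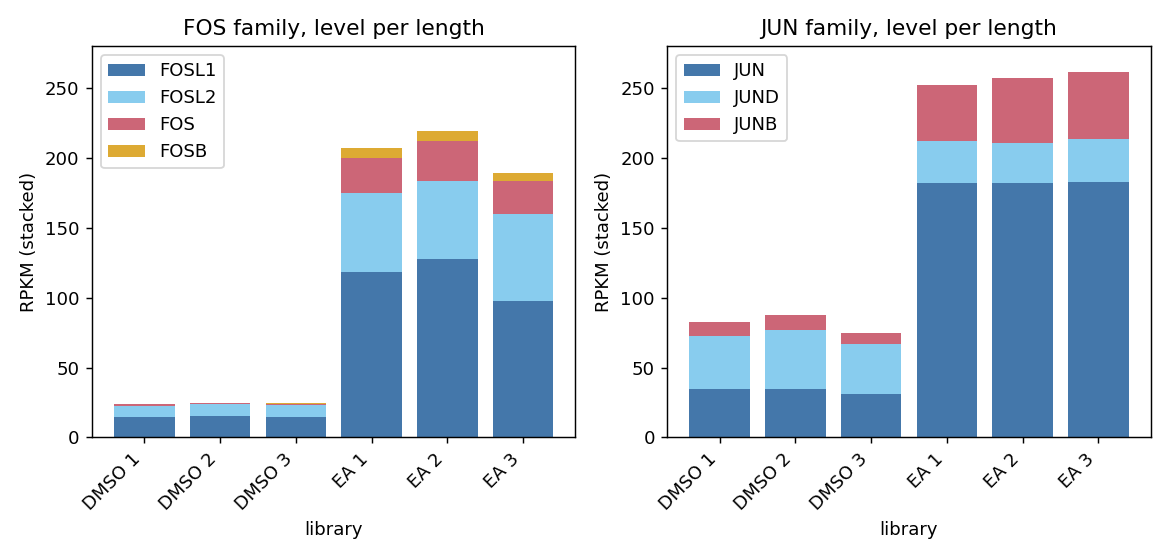
Level per length (RPKM, y axis, starting at 0) of the FOS family (left) and the JUN family (right) in each of the 6 libraries (x axis), stacked by gene. The FOS family sums to between 23.9 and 24.9 RPKM in DMSO and between 189 and 219 with EA, and JUND takes the largest part of the JUN family in DMSO and the smallest with EA.

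Genes around AP-1 were described from lists by role. Among regulators of FOS and JUN transcription, 8 of 10 were higher with EA, 1 was lower and 1 was not called (median log2 fold change 0.84). Of all tested genes, 40.5% were higher and 40.5% lower, 81% in either direction. CREB1 and ATF2 also belong to the bZIP list below. ELK3, a ternary complex factor that partners SRF, rose from 36.6 ± 0.519 to 324 ± 23.8 CPM, and the MEF2 factors MEF2D and MEF2A, which act on the JUN promoter, rose by 2.37 and 1.5 on the log2 scale. ELK4, another ternary complex factor, rose by 1.03. SRF itself stood at 118 ± 7.26 CPM in DMSO and 124 ± 12.1 with EA and was not called (log2 fold change 0.07, SE 0.08). MKL2 fell by 0.62 on the log2 scale (SE 0.19), with EA libraries at 42.8, 41.2 and 67.9 CPM, the last being EA replicate 3, against 77.1 to 78.6 CPM in DMSO.

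Of MAP kinases that act on AP-1, 8 of 18 tested genes were higher, 8 lower and 2 not called (median log2 fold change 0.06), near the 40.5% higher and 40.5% lower among all tested genes. MAPK3 (adjusted p = 0.0498 in edgeR) and MAP3K8 (adjusted p = 0.0429) lay at the threshold, and 5 to 8 genes were lower over the alternatives. Of the 18 tested genes, 1 reached the test through the EA libraries alone and 2 through the DMSO libraries alone. MAP2K1, which encodes the ERK activator MEK1, rose from 68.9 ± 0.449 to 247 ± 23.9 CPM. MAP2K4, an activator of JNK and p38 kinases, rose by a log2 fold change of 1.09 and the p38 gene MAPK13 by 1.03, while the p38 gene MAPK12 fell by 2.11 on the log2 scale. The JNK genes, whose products phosphorylate JUN, were looked at after their values were seen. MAPK8 (JNK1) rose from 40.8 ± 2.76 to 69.5 ± 4.10 CPM, MAPK9 (JNK2) fell from 71.8 ± 3.92 to 35.6 ± 1.94 CPM, and MAPK10 (JNK3) summed to 0 reads in DMSO and 29 in EA. These are RNA levels, and kinase activity was not measured.

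Genes for the turnover of AP-1 RNA and protein were higher in 6 of 11 cases, lower in 4 and not called in 1 (median log2 fold change 0.35), not far from the 40.5% each way among all tested genes. The zinc finger genes ZFP36L1 and ZFP36 rose by 2.72 and 1.92 on the log2 scale, ZFP36L1 from 149 ± 6.51 to 978 ± 54.5 CPM. The ubiquitin ligase genes FBXW7 and ITCH rose by 1.35 and 1.02. ELAVL1 (HuR) fell by 0.60 on the log2 scale (SE 0.07). HNRNPD, KHSRP and DET1, with log2 fold changes of -0.35, -0.33 and -0.82, were the other lower members. These directions do not show whether AP-1 RNA or protein was turned over faster or slower, which was not measured.

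Of 18 other bZIP genes tested, 14 were higher, 1 was lower and 3 were not called (median log2 fold change 0.53). The shares among all tested genes were 40.5% higher and 40.5% lower, 81% in either direction. By at least 2-fold, 5 of the 18 were called higher, against 23.4% of all tested genes. Of the 18, 2 reached the test through the EA libraries alone, so these counts and the median lean upward. BACH1, a repressor that pairs with small MAF proteins, rose from 67.4 ± 1.9 to 333 ± 8.91 CPM. MAFK, another small MAF, rose from 33.6 ± 2.26 to 142 ± 8.09 CPM. BACH2 went from 0.282 ± 0.0981 to 9.69 ± 0.689 CPM, and CREB5 rose by a log2 fold change of 2.34. NFE2L3 fell by 0.32 on the log2 scale (SE 0.08). BATF (0.28, SE 0.31), ATF4 (0.02, SE 0.07) and NFE2L1 (-0.08, SE 0.06) were not called, and MAFG was listed at 0 reads throughout. That a gene is listed at 0 may reflect how reads were assigned and does not show absence.

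All 18 other immediate early genes were called higher with EA (median log2 fold change 2.51), 13 of them by at least 2-fold. The shares of all tested genes were 40.5% and 23.4%. Of the 18, 3 reached the test through the EA libraries alone, so the counts and the median lean upward. Like the other lists, this one was chosen with earlier results of these data known. EGR1, a zinc finger factor induced with FOS, rose from 83.8 ± 5.89 to 757 ± 42.7 CPM. The MAP kinase phosphatase gene DUSP1 rose by a log2 fold change of 3.41 and IER5 by 2.43. ARC, which entered the test through the EA libraries alone, went from a sum of 15 reads in DMSO to 1468 in EA. The smallest rise was that of MYC (0.17, SE 0.07), whose groups overlapped, as did those of KLF10 (0.42). In 10 of the 18 alternatives MYC alone or both genes lost the call, which left 16 or 17 higher.

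Of 24 textbook AP-1 target genes, 20 were tested, and 19 of these were higher and 1 lower, against 40.5% each way among all tested genes. The median log2 fold change was 4.72, also with CSF2, which had 0 reads in DMSO, set at its lower bound. Of the 20 tested, 6 passed the filter on low counts through the EA libraries alone, so the count and the median lean upward. This list, too, was chosen with earlier results of these data known. The metalloproteinase gene MMP3 had a log2 fold change of 8.59 (SE 0.11). The membrane protein gene EMP1 went from 5.35 ± 0.303 to 359 ± 17.7 CPM, the urokinase receptor gene PLAUR from 4.32 ± 0.440 to 152 ± 13.9 CPM, and the cytokine gene IL11 from 41.8 ± 3.05 to 378 ± 9.94 CPM. The haem oxygenase gene HMOX1 went the other way and fell by 0.40 on the log2 scale (SE 0.09). IL6, IVL, SPRR1B and GJA1 had at most 1 read over each group and were not tested.

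**Figure D4:**
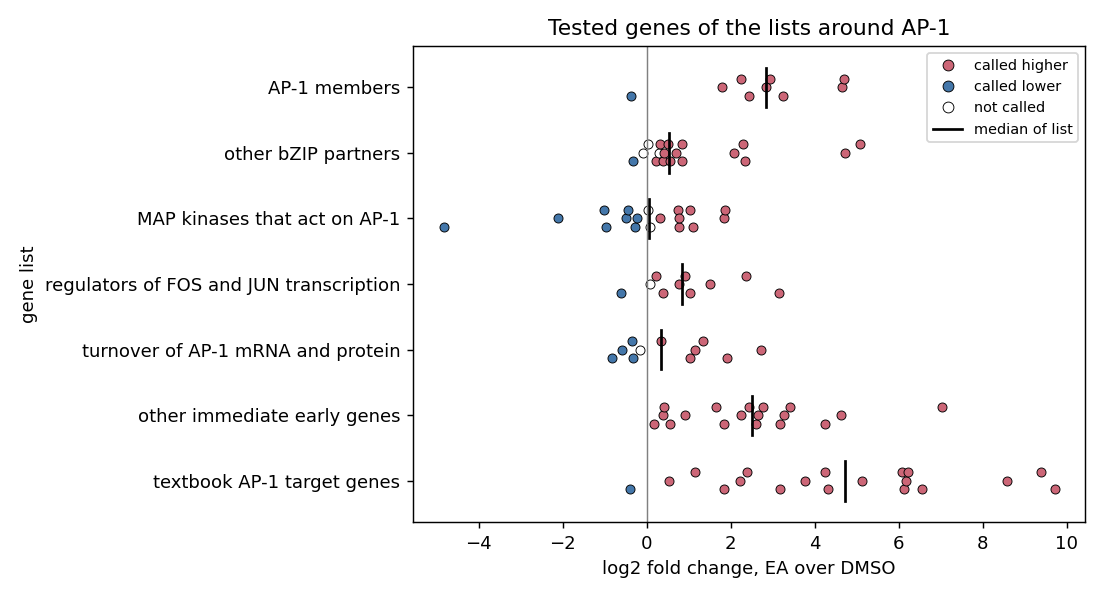
Log2 fold change of EA over DMSO (x axis) of each tested gene in the AP-1 members and 6 lists around them (y axis), coloured by call, with a line at the median of each list; CSF2, at 0 reads in DMSO, is not drawn. All points of the other immediate early genes lie above 0, and MAP kinases spread on both sides with a median of 0.06.

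Genes nearest in pattern to FOS, FOSL1 and JUN were sought among 12680 other protein-coding genes, by the distance between log2 CPM (prior count 2) centred on the DMSO mean over the 6 libraries. Nearest to JUN were GOLT1A (distance 0.09), HMGA1 (0.10) and ARRDC2 (0.13), with log2 fold changes of 2.46, 2.50 and 2.43. Of these HMGA1, an architectural chromatin protein gene, was the most abundant, at 525 CPM in DMSO and 2961 CPM with EA. Nearest to FOSL1 were TMC8 (0.14), STYK1 (0.23) and FSIP2 (0.23), and nearest to FOS were CD300LB (0.24), FXYD5 (0.30) and AHNAK2 (0.31). STYK1 and CD300LB had 0 reads in DMSO and 0.575 and 2.16 CPM with EA, so their closeness rests on the prior count. Of the named neighbours of FOS, AHNAK2 was at a like level, from 4.33 to 108 CPM.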

How the data were processed

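RNA of 6 HepG2 libraries (3 DMSO, 3 EA) was sequenced. The authors deposited raw counts of reads for each gene; the submitters' processing notes name HISAT and HTSeq 0.6.1, hg19, and for earlier steps cutadapt 1.9.1 and bcl2fastq 2.17.1.14. The annotation release, strand setting and filters: not given in the sources used here. Columns were matched to samples by name.

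Genes were filtered with filterByExpr (minimum count 10), scaled by TMM and tested with edgeR 4.0.16 (R 4.3.3, robust quasi-likelihood F test, Benjamini-Hochberg over 15648 genes). An SE is the log2 fold change over the square root of F. The test was also run on simulated counts with a common spread for all genes and few of them changed. That run differs from these data, where 81% of genes were called, and cannot show how the test behaves here. Lengths came from GENCODE 29 (GRCh38), promoters from RefSeq. Members and lists were chosen with earlier results of these data known. All members are named; in each list the 4 called genes with the smallest p, plus others not called or against the majority; MAPK8, MAPK9, MAPK10, MYC, KLF10, MAPK3, MAP3K8, the marker genes, HOOK2 and untested genes were named after values were seen. PECAM1 was not matched. A count of 0 to 3 reads limits a level to 0.117 to 0.187 CPM. Alternatives were DESeq2 1.42.0, limma 3.58.1 (voom), other scalings, filters and thresholds, thinning, a replicate block and leaving out each library.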

Additional observations from a re-analysis of the deposited data

How the results depend on the processing

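For each of the 9 tested AP-1 genes the direction and the call were the same in all 18 alternatives run. Each gave 8 AP-1 genes higher and 1 lower, also with each library left out in turn. JUND had the largest adjusted p of these, 0.0318 with a minimum fold of 1.2, and its log2 fold change ranged from -0.51 to -0.34. Over the whole table the alternatives called 11130 to 14923 genes, and scalings moved the median log2 fold change of all genes by at most 0.04. Counts in the lists moved more. Members called higher ranged over the alternatives from 11 to 14 for other bZIP genes, 7 to 10 for MAP kinases, 7 to 9 for regulators of transcription, 5 to 6 for turnover genes, 16 to 18 for other immediate early genes and 18 to 19 for AP-1 targets. Members called lower ranged from 0 to 2, 5 to 8, 0 to 1 and 2 to 5 in the first 4 of these, and were 0 and 1 throughout in the last 2. With a minimum fold of 1.2, 0 of the other bZIP genes, 5 of the MAP kinases and 2 of the turnover genes were lower, with an adjusted p of 0.01, 0 of the regulators of FOS and JUN transcription, and without a filter 2 of the other bZIP genes. A minimum fold and a smaller p are stricter by construction. Without a filter the log2 fold changes of all 9 tested AP-1 genes were lower by a like amount. They were 4.53 against 4.66 for FOS, 1.65 against 1.78 for MAFF and -0.51 against -0.38 for JUND. The scaling factors were then computed over the unfiltered genes too, and the median over 32015 genes was 0.25. The cause was not tested. Whether same-numbered libraries shared a culture or day is not stated in the labels. Correlations of their deviations from the group means were -0.08, 0.03 and -0.02, which cannot decide it with 3 libraries per group. The replicate block called 12537 genes, and 8 AP-1 genes higher and 1 lower. Depth limits BATF3 and the low genes of the lists.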
